A study of Mus musculus with 2 samples.

Results

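CD8 T cells of the mouse mammary gland were taken as the 355 barcodes, of 21891 kept, whose transcripts met a rule on raw counts. A kept barcode had at least 1000 unique molecular identifiers (UMIs, each standing for 1 captured RNA molecule), at least 500 genes and at most 10% mitochondrial UMIs. A member also had a UMI in at least 2 of Cd3d, Cd3e and Cd3g, at least 1 UMI of Cd8a and Cd8b1 together, and no UMI of Cd4, Epcam, Cd79a or the gamma-delta genes Cd163l1, Trdc and Il17a. Its Col1a1 and Col3a1 UMIs together stayed under 40 per 10000. The 4th mammary glands of virgin female C57BL/6 mice, 6 to 8 weeks old, had given 1 droplet library per genotype: 240 members came from mice with a deletion of Gpm6a (KO) and 115 from wild-type mice (WT). Per the labels, each genotype was represented by 3 littermates, whose glands were digested with collagenase and sorted for DAPI-negative (living) cells. The labels do not say whether the animals were pooled or which part of Gpm6a was deleted, and they call the sorted cells epithelial although immune and stromal cells were present. With 1 library per genotype there is no measure of the spread between animals, so no test was made between KO and WT. Intervals given below are 95% and cover counting error only.

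CD8 T cells carry an alpha-beta T cell receptor, signal through the CD3 chains, and use the CD8 alpha and beta chains to bind class I major histocompatibility molecules on other cells. Naive and central memory CD8 T cells circulate through lymph nodes with the help of Ccr7 and S1pr1 and keep the transcription factors Tcf7 and Lef1. Effector and memory cells add chemokines such as Ccl5 and the granule proteases Gzma and Gzmb, and resident memory cells stay in epithelial tissues with Cd69 and Itgae on their surface.

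The KO members held 1898302 UMIs (median 5313 per cell, range 1819 to 47527), and the WT members 958996 UMIs (median 5831, range 1851 to 47878). The median number of genes per member was 1593.5 in KO and 1830 in WT. Gpm6a, on chromosome 8 (54954843 to 55060871, plus strand, GRCm38), had 0 UMIs in 240 KO members, which allows a share of up to 1.25% of cells with a UMI, and 1 UMI in 115 WT members. In all other kept barcodes Gpm6a had 30 UMIs in 20 KO cells and 287 UMIs in 58 WT cells. CD8 T cells hold too little of this transcript to check the genotype, and the other cells held fewer UMIs in KO. Of 33 barcode sequences present in both libraries, 2 belonged to KO members and 0 to WT members.

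Of the markers fixed for the cell type, only Lef1 lay outside the rule. After each cell was thinned to 2000 UMIs, Lef1, a transcription factor of T cells, was detected in 46.0% of KO members and 43.0% of WT members. In B cell barcodes it was detected in 3.90% (KO) and 4.96% (WT). Trac, the constant part of the T cell receptor alpha chain and also outside the rule, was detected in 53.1% of KO members and 52.6% of WT members, against 0.30% (KO) and 1.65% (WT) of B cell barcodes. Unthinned, Trac was present in 82.9% of KO and 82.6% of WT members, and Lef1 in 71.2% and 77.4%. Median depth was 3158 UMIs in KO and 5085 in WT B cell barcodes. Transcripts of the natural killer receptor genes Ncr1 and Klrb1c were nearly absent, with 2 and 1 UMIs in KO members and 0 and 1 in WT members. The 8 gamma-delta genes found in the files summed to 7.38 CPM in KO and 12.5 CPM in WT, CPM being UMIs scaled to a common total per library and cell type. Cd163l1, Trdc and Il17a are among them and were held at 0 by the rule, so the sum was partly fixed in advance. The whole list of 9 natural killer markers, Ncr1 and Klrb1c among them, summed to 721 CPM in KO and 892 CPM in WT members. Without the antigen-presenting-cell RNA described next it summed to 292 CPM in KO and 496 CPM in WT. Of this list, Gzma had 194 CPM in KO and 234 CPM in WT members, and Fcer1g 267 CPM in KO and 376 CPM in WT.

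Some members carried RNA of antigen-presenting or myeloid cells. At least 20 class II UMIs (Cd74, H2-Aa, H2-Ab1, H2-Eb1) or at least 10 UMIs of Lyz2, C1qa, C1qb, C1qc and Cd14 per 10000 were found in 20 of 240 KO members (8.33%) and 19 of 115 WT members (16.5%). These cells were deep, with a median of 18722 UMIs in KO and 14899 in WT, and contributed 20.5% of all member UMIs in KO and 29.2% in WT. The limits were set after the data had been seen. Class II transcripts had no UMI in 186 KO and 82 WT members, and 3 KO and 2 WT members lay within 2-fold of the class II limit. The 4 class II genes summed to 3863 CPM in KO and 8222 CPM in WT members, and to 41.1 CPM in KO and 38.3 CPM in WT once these barcodes were left out. Scrublet called 1 KO and 4 WT members doublets. Results that these barcodes touch are given with and without them.

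CD8 T cells made up 2.20% of kept KO barcodes (240 of 10907, 1.93 to 2.49%) and 1.05% of kept WT barcodes (115 of 10984, 0.865 to 1.26%). The ratio of the shares was 2.10 (1.68 to 2.65), and 2.31 without antigen-presenting-cell RNA (220 KO and 96 WT cells). Other lymphocytes were also more frequent in the KO library: CD4 T cells 1.79-fold (80 KO and 45 WT barcodes, 1.23 to 2.64), gamma-delta and Il17a T cells 3.69-fold (55 and 15, 2.06 to 7.04) and B cell barcodes 2.89-fold (2.35 to 3.58). The ratio of natural killer (NK) barcodes was 1.48 (28 KO and 19 WT), with an interval of 0.80 to 2.81 that includes equal shares. Within the 3 T cell gates, CD8 T cells took 64.0% in KO (58.9 to 68.9%) and 65.7% in WT (58.2 to 72.7%), and there were 3 CD8 T cells per CD4 T cell in KO and 2.56 in WT. Among barcodes with a Ptprc (CD45) UMI and no Epcam UMI, CD8 T cells were 16.3% of 1476 in KO and 13.2% of 870 in WT. Differences between animals, in dissection (a lymph node lies in this gland) and in sorting cannot be told apart from genotype here.

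**Figure D1:**
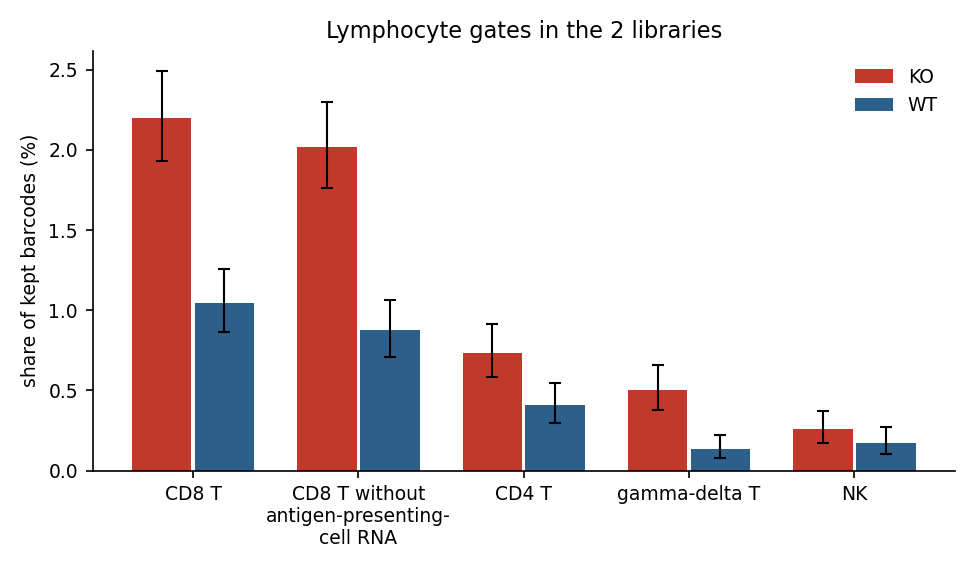
Share of kept barcodes in each lymphocyte gate, in percent, for the KO library (red, left) and the WT library (blue, right); error bars are exact 95% binomial intervals, counting error only, and each bar is 1 library. CD8 T cells stood at 2.20% in KO and 1.05% in WT, and the 2 NK bars overlap within their intervals.

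The members varied in the transcripts that defined them. All 3 CD3 genes were detected in 185 KO and 97 WT members and exactly 2 in 55 KO and 18 WT members. CD8 counts were low: 66 KO and 30 WT members had a single CD8 UMI, and 72 KO and 41 WT members had 4 or more. Just outside the rule, 12 KO and 8 WT barcodes had 1 CD3 gene, 7 KO and 7 WT barcodes had 1 UMI of Cd4, and 212 KO and 99 WT barcodes had no UMI of either coreceptor. Collagen reached 27.5 per 10000 in the highest KO and 38.9 in the highest WT member, while the lowest barcodes left out for collagen had 44.6 in KO and 73.9 in WT.

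Cd8a (chromosome 6, 71373427 to 71379173) and Cd8b1 (chromosome 6, 71322788 to 71337494) encode the alpha and beta chains of the coreceptor. Both were detected in 105 KO and 54 WT members, Cd8b1 alone in 103 KO and 41 WT members, and Cd8a alone in 32 KO and 20 WT members. Without antigen-presenting-cell RNA, at least 2 Ccl5 UMIs were found in 9 of 29 KO (31.0%, 15.3 to 50.8%) and 8 of 18 WT (44.4%, 21.5 to 69.2%) members with Cd8a alone. The share was 20.2% in KO and 25.6% in WT members with both chains, and 12.4% in KO and 31.4% in WT members with Cd8b1 alone. These intervals overlap between the chain classes of a library and between the libraries within a class. Over all members, those of KO and WT did not overlap for Cd8b1 alone: 11.7% in KO (6.17 to 19.5%) and 34.1% in WT (20.1 to 50.6%). In the other classes they did. At CD8 counts this low, a chain without a UMI cannot be told apart from one that was not captured.

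Variable segments of the T cell receptor were seldom captured by these libraries. Alpha-chain segments (Trav) had a UMI in 42 of 240 KO members (17.5%) and 25 of 115 WT members (21.7%), spread over 29 segments in KO and 17 in WT. Beta-chain segments (Trbv) had one in 36 KO members (15.0%) and 18 WT members (15.7%), over 16 segments in KO and 11 in WT. Trbv12-2 had 12 UMIs in 8 KO members and 7 UMIs in 4 WT members, and Trav16n had 9 UMIs in 7 KO members and 10 UMIs in 4 WT members. These 2 segments, the only ones named, were chosen after their values were seen.

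CD8 T cells were first set against CD4 T cells of the same libraries (80 KO and 45 WT barcodes, with Cd4 and without CD8 transcripts). UMIs were summed per library and cell type and tested with edgeR's quasi-likelihood test with Benjamini-Hochberg adjustment over 6406 genes, with the library as a block. Of these genes, 74 (1.16%) were higher and 44 (0.687%) lower in CD8 T cells, 1.84% in all. Genes of the gates are not results. The 2 libraries, which differ in genotype, serve as the replicates, so the p-values rest on 2 residual degrees of freedom. Of the genes named below for this comparison, Gzma, Klrd1, Nkg7, Fam241a, Bend4, Dapl1, Sidt1, Foxp3 and Izumo1r also passed without the library block (adjusted p of 0.000908 to 0.0482), and the other called genes did not.

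Cytotoxic granule genes and receptors shared with NK cells led the genes higher in CD8 than in CD4 T cells. Gzma, a granule protease, had 194 CPM in KO and 234 CPM in WT CD8 T cells, against 1.69 CPM (1 UMI) in KO and 0 CPM in WT CD4 T cells (log2 difference 7.68, edgeR adjusted p = 8.97e-06). A Gzma UMI was found in 16.2% of KO and 25.2% of WT members. In KO, 1 cell gave 39.6% of the 313 Gzma UMIs of members with both CD8 chains. In WT, 1 cell gave 94.6% of the 149 Gzma UMIs of members with Cd8a alone. Klrd1 (CD94), which pairs with inhibitory and activating lectin receptors, had 299 CPM in KO and 200 CPM in WT CD8 T cells and 16.9 CPM in KO and 6.32 CPM in WT CD4 T cells (4.51, edgeR adjusted p = 0.000202). Nkg7, a protein of cytotoxic granules, had 192 CPM in KO and 214 CPM in WT CD8 T cells and 27 CPM in KO and 10.5 CPM in WT CD4 T cells (3.50, edgeR adjusted p = 0.00061). All 3 were lower in the CD4 T cells of each library than in the CD8 T cells of either. Xcl1, a chemokine that attracts cross-presenting dendritic cells, was called (3.33, edgeR adjusted p = 0.0174), although 32.6% of its KO and 48.6% of its WT UMIs came from 1 cell each. Without the library block the adjusted p of Xcl1 was 0.125.

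Over all genes, 1.16% were higher and 0.687% lower in CD8 than in CD4 T cells. Among the lists, 4 of 21 tested cytotoxic effectors (of 23) were higher in CD8 T cells, Gzma, Nkg7, Xcl1 and Ctsw, and 2 were lower. Those were Hopx, at 182 CPM in KO and 128 CPM in WT CD8 T cells and 644 CPM in KO and 562 CPM in WT CD4 T cells (log2 difference -1.87, edgeR adjusted p = 0.00909), and Lgals1 (-1.64, edgeR adjusted p = 0.0108). Of 16 tested memory and effector regulators (of 18), 3 were higher, the transcription factors Eomes and Runx3 and the surface protein Ly6c2. Eomes had 34 UMIs in KO and 10 in WT CD8 T cells and none in CD4 T cells, so it was at least 5.48-fold higher (edgeR adjusted p = 0.0369). By the same reckoning, against 3 counts over the group, Cd160 was at least 12.5-fold and Klra7 at least 7.1-fold higher in CD8 T cells. Klra7 and Klrd1 were the 2 higher of 12 tested NK receptors (of 16).

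The tested genes of naive and central memory cells had a median log2 difference of 0.54, against -0.01 over all genes. Of these 20 (of 23), 3 were higher in CD8 than in CD4 T cells and 0 lower by edgeR, beside 1.16% and 0.687% of all genes. They were Klf2, which sustains the exit of T cells from tissue (1.06, edgeR adjusted p = 0.0284), Tmem108 (2.98, edgeR adjusted p = 0.0203) and Dapl1. Dapl1 had 183 CPM in KO and 225 CPM in WT CD8 T cells and 15.2 CPM in KO and 37.9 CPM in WT CD4 T cells (3.12, edgeR adjusted p = 0.00299). Among members with both CD8 chains, 1 cell gave 30.4% of the KO and 59.0% of the WT Dapl1 UMIs. Lef1 (0.70, edgeR adjusted p = 0.142) and Ccr7 (0.29, edgeR adjusted p = 0.839) did not pass. Also higher by the naming rule were Fam241a (3.29, edgeR adjusted p = 0.00061), Bend4 (3.27, edgeR adjusted p = 0.00299), Cd7 (3.04, edgeR adjusted p = 0.0162), Ly6c2 (2.83, edgeR adjusted p = 0.00909) and Sidt1 (2.43, edgeR adjusted p = 0.00499).

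Of 7 tested markers of CD4 and regulatory T cells (of 8, Cd4 being a gate gene), 5 were lower in CD8 T cells and 0 higher (edgeR). Over all genes, 0.687% were lower and 1.16% higher. Foxp3, the transcription factor of regulatory T cells, had 3.16 CPM in KO and 1.04 CPM in WT CD8 T cells against 79.3 CPM in KO and 139 CPM in WT CD4 T cells (-5.17, edgeR adjusted p = 0.000887). Ctla4, an inhibitory receptor, had 135 CPM in KO and 166 CPM in WT CD8 T cells against 437 CPM in KO and 1108 CPM in WT CD4 T cells (-2.10, edgeR adjusted p = 0.00605). Tnfrsf4 (OX40, -3.97, edgeR adjusted p = 0.00605), Izumo1r (-2.71, edgeR adjusted p = 0.00441) and Ikzf2 (-1.13, edgeR adjusted p = 0.015) complete this list. The costimulatory receptors Icos (-2.15) and Tnfrsf9 (-2.11), the IL-33 receptor Il1rl1 (-2.75), Trat1 (-2.35), Stx11 (-2.32) and the nuclear receptor Rora (-2.09) were lower too, at edgeR adjusted p between 0.00605 and 0.0328.

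Ccl5, a chemokine of effector and memory T cells, depended on the barcodes with antigen-presenting-cell RNA. Over all barcodes it had 470 CPM in KO and 867 CPM in WT CD8 T cells, against 125 CPM in KO and 1359 CPM in WT CD4 T cells, and was not called (log2 difference 0.34, edgeR adjusted p = 0.891). The difference was positive within KO and negative within WT. Without those barcodes it was 2.70 higher in CD8 T cells (edgeR adjusted p = 0.0085). Those barcodes were 8.75% of the KO and 28.9% of the WT CD4 gate.

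**Figure D2:**
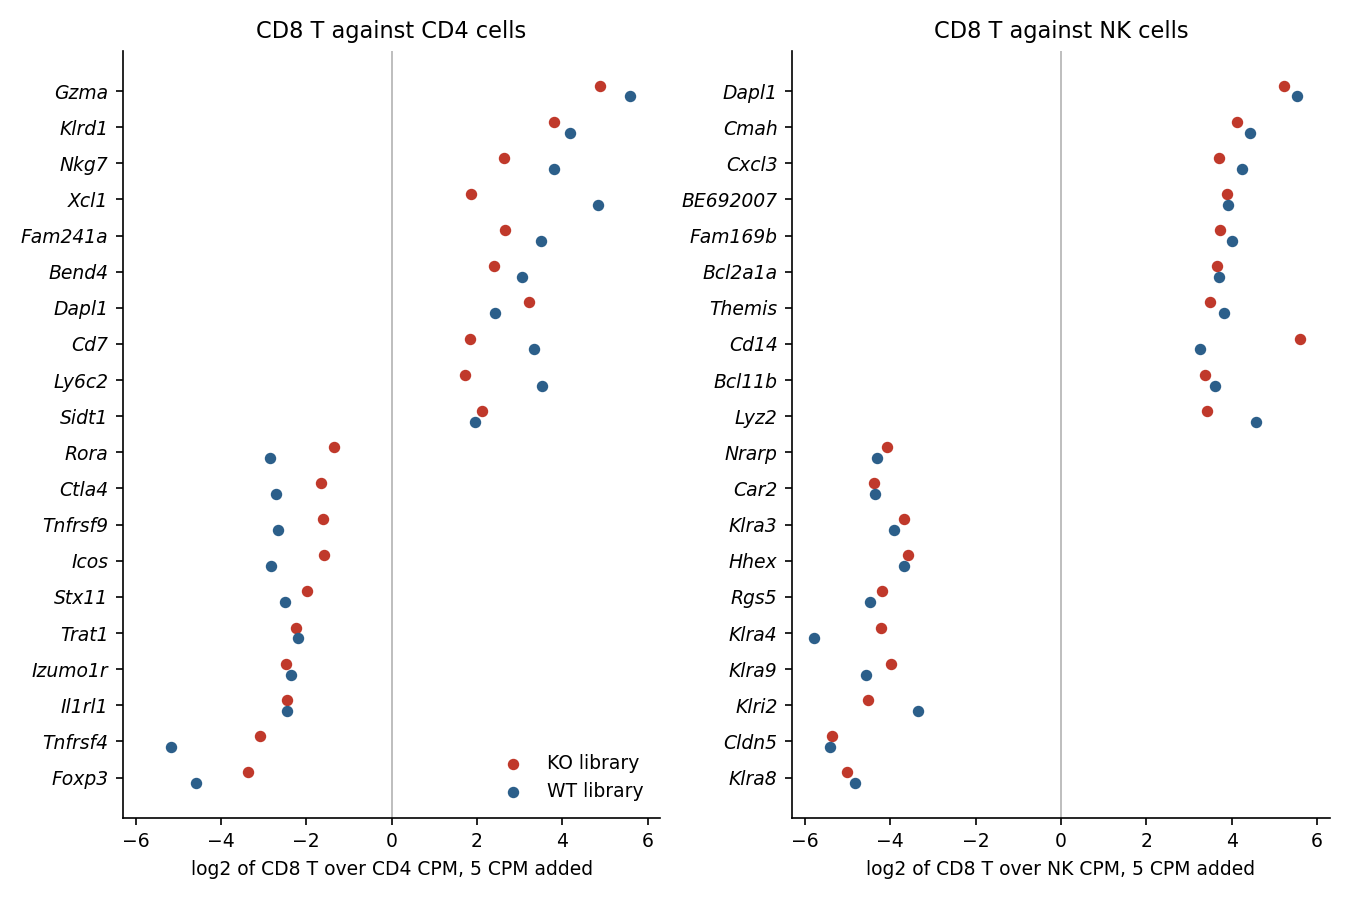
Log2 of CD8 T over CD4 T cells (left) and over NK cells (right) in CPM with 5 CPM added, for the 10 highest and 10 lowest called genes of each comparison, within the KO library (red, upper point of each pair) and the WT library (blue, lower point). All 40 pairs lie on the same side of 0 in both libraries, among them Gzma above and Foxp3 below 0 against CD4 T cells.

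NK cells (28 KO and 19 WT barcodes, without CD3 transcripts and with Ncr1 or Klrb1c) share cytotoxic genes with CD8 T cells. The comparison uses the same CD8 sums as that with CD4 T cells. Of 6406 genes, 275 (4.29%) were higher and 311 (4.85%) lower in CD8 T cells, 9.15% in all. Of 21 tested cytotoxic effectors, 14 were lower and 0 higher in CD8 T cells (edgeR), with a median log2 difference of -2.15 against 0.02 over all genes. Gzma had 3467 CPM in KO and 4004 CPM in WT NK cells, and its difference was -3.97 (edgeR adjusted p = 2.25e-06). Prf1, the pore-forming granule protein, had 14.8 CPM in KO and 12.5 CPM in WT CD8 T cells against 178 CPM in KO and 227 CPM in WT NK cells (-3.68, edgeR adjusted p = 0.000312). Ccl5 reached 6213 CPM in KO and 5913 CPM in WT NK cells (-3.21, edgeR adjusted p = 0.00687), and its call was lost without the library block, at adjusted p = 0.0913. CD8 T cells of this gland lay between CD4 T and NK cells for Gzma and Nkg7 in both libraries. Nkg7 had 1065 CPM in KO and 952 CPM in WT NK cells, a difference of -2.15 (edgeR adjusted p = 0.000409).

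Of 12 tested NK receptors, 10 were lower in CD8 T than in NK cells and 0 higher (edgeR), beside 4.85% and 4.29% of all genes. The Ly49 receptor gene Klra8 had 1 UMI in KO and 0 in WT CD8 T cells against 31 in KO and 23 in WT NK cells (-8.12, edgeR adjusted p = 0.000194), and Klra9, Klra4, Klra3 and the related Klri2 differed by -5.67, -5.43, -4.70 and -5.79. DESeq2 did not call Klra4 (adjusted p = 0.0913). The Klra genes are near-identical copies of one another, and reads may have been split among them. Eomes (-4.34, edgeR adjusted p = 0.000121) and Il2rb, a chain of the IL-15 receptor (-2.39, edgeR adjusted p = 6.4e-05), were lower in CD8 T cells. Cldn5, an endothelial tight-junction gene, was also among the 10 lowest (-7.89, edgeR adjusted p = 6.4e-05), as were Rgs5, Hhex, Car2 and Nrarp, and all 3 tested endothelial markers were lower in CD8 T cells: the NK gate held endothelial RNA, and its part in the other differences was not tested.

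T cell receptor and naive genes were higher in CD8 T than in NK cells. Of 22 tested T cell receptor signalling genes (of 25, with Cd3d, Cd3e and Cd3g as gate genes), 13 were higher and 1 lower (edgeR). Of 20 tested naive and central memory genes, 13 were higher and 1 lower (edgeR). Over all genes, 4.29% were higher and 4.85% lower. Trac (4.22, edgeR adjusted p = 7.17e-05), Lef1 (2.56, edgeR adjusted p = 0.000409), Ccr7 (2.84, edgeR adjusted p = 0.00343) and the activation and residency receptor Cd69 (2.56, edgeR adjusted p = 0.00131) were higher. Bcl11b, a transcription factor of T cell commitment, was higher by 4.44 (edgeR adjusted p = 0.000409). Dapl1 had 348 UMIs in KO and 216 in WT CD8 T cells and none in NK cells, at least 22.9-fold higher (edgeR adjusted p = 0.000386). Cmah, BE692007, Fam169b and Themis, a signalling protein of developing T cells, likewise had no UMI in NK cells and were at least 10.3, 8.02, 7.7 and 6.52-fold higher. The last 4 of the 10 highest genes, Cxcl3, Bcl2a1a, Cd14 and Lyz2, gave no value without antigen-presenting-cell RNA.

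Transcripts of circulating T cells were found in most members. Tcf7, a transcription factor of naive and memory T cells, was detected in 77.5% of KO members and 88.7% of WT members, and after thinning in 43.9% (KO) and 54.4% (WT). In B cell barcodes the thinned share was 0.30% (KO) and 2.48% (WT). Ccr7, the receptor that leads T cells into lymph nodes, averaged 489 CPM in KO (458 to 521) and 582 CPM in WT (535 to 632). Klf2 had 724 CPM in KO (687 to 764) and 708 CPM in WT (656 to 763), and Il7r, the receptor of the survival cytokine IL-7, 290 CPM in KO and 395 CPM in WT. Genes of terminal effector cells were scarce: Klrg1 had 0 UMIs in KO and 8 in WT, all in 1 cell, and S1pr5 had none in either library. Zfp683, a gene of the residency list, had none in either library. Gzmk, of the cytotoxic list, had 1 UMI in KO and 13 UMIs in 2 WT cells.

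**Figure D3:**
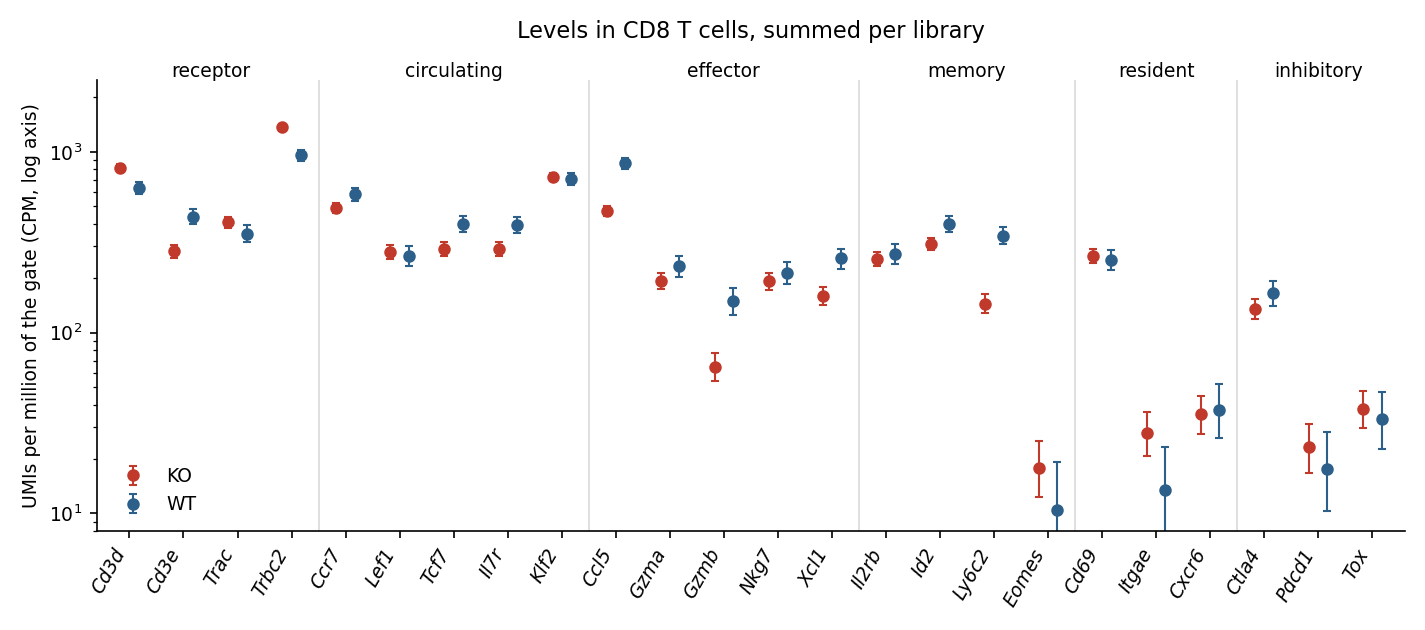
CPM on a log axis of 24 genes in CD8 T cells, summed over all members of the KO library (red, left of each pair) and the WT library (blue, right), with exact 95% Poisson intervals for counting error only; genes are grouped by role. Klf2, Lef1 and Cd69 stood at like levels in both libraries, while Ccl5, Gzmb and Ly6c2 were lower in KO.

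Within the members, Ccl5 separated a smaller group. At least 2 Ccl5 UMIs were found in 46 KO members (19.2%, 14.4 to 24.7%) and 36 WT members (31.3%, 23 to 40.6%), 1 UMI in 11 KO and 9 WT members, and none in 183 KO and 70 WT members. The cells with 2 or more were somewhat deeper (median 6652.5 UMIs in KO and 7265.5 in WT) than those with none (4899 in KO and 5325.5 in WT), so levels in CPM are compared below, in members without antigen-presenting-cell RNA. A class cut from a count is a range and not a cell type.

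Genes of the cytotoxic and memory lists were counted by their order between these classes, with no test. This order was not counted over all genes, so these counts and those of the naive genes below have no background share. Of 14 cytotoxic effectors with at least 40 UMIs (of 22 besides Ccl5), 10 were higher in the cells with Ccl5 in both libraries, 0 were lower in both, and 4 (Cst7, Ccl4, Xcl1 and Hopx) were in a different order in KO and WT. Of 10 memory and effector regulators (of 18), 9 were higher in both libraries and Cd44 was mixed. The genes described next were chosen after their values were seen. Ly6c2, a surface protein of memory CD8 T cells, had 334 CPM in KO and 606 CPM in WT cells with Ccl5, against 67.1 CPM in KO and 122 CPM in WT cells without it. Il2rb had 409 CPM in KO and 601 CPM in WT cells with Ccl5, against 243 CPM in KO and 177 CPM in WT cells without. Nkg7 had 317 CPM in KO and 438 CPM in WT cells with Ccl5, against 159 CPM in KO and 154 CPM in WT cells without. The classes did not overlap for these 3 genes, whichever library was taken. Serpinb9, an inhibitor that protects cells from their own granzyme B, had 149 CPM in KO and 150 CPM in WT cells with Ccl5, against 23.3 CPM in KO and 23.2 CPM in WT cells without. Klra7 had 23 UMIs in KO and 23 in WT cells with Ccl5 and 0 in either library without it, but 1 cell gave 52.2% of the KO and 56.5% of the WT count.

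Granzymes were concentrated in few cells. Gzma had 563 CPM in KO and 752 CPM in WT cells with Ccl5, against 68.1 CPM in KO and 57.9 CPM in WT cells without, but 60.8% of its KO and 82.9% of its WT UMIs in the first class came from 1 cell. Gzmb had 207 CPM in KO and 433 CPM in WT cells with Ccl5, against 12.1 CPM in KO and 72.4 CPM in WT cells without, and 1 cell gave 44.0% of the first KO value and 74.5% of the first WT value. The effector transcription factor Tbx21 had 6 UMIs in KO and 3 in WT cells with Ccl5 and none without.

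Of 20 naive and central memory genes with at least 40 UMIs (of 23), 15 were lower in the cells with Ccl5 in both libraries, 2 (Il7r and Nsg2) were higher in both and 3 were mixed. Dapl1 had 1 UMI in KO and 12 in WT cells with Ccl5 (2.76 and 53.1 CPM), against 254 CPM in KO and 156 CPM in WT cells without. Igfbp4 showed the same order, with 2.76 CPM in KO and 44.2 CPM in WT cells with Ccl5 and 74.6 CPM in KO and 162 CPM in WT cells without, and the gut-homing receptor Ccr9 had no UMI with Ccl5 in either library. Dapl1 and Igfbp4 were lower in cells with Ccl5 within each library. The WT cells with 1 Ccl5 UMI, in neither class, held 135 UMIs of Dapl1 in 3 cells. Klf2 had 536 CPM in KO and 716 CPM in WT cells with Ccl5, against 907 CPM in KO and 1092 CPM in WT cells without. Lef1 had 232 CPM in KO and 248 CPM in WT cells with Ccl5, against 343 CPM in KO and 339 CPM in WT cells without.

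Not every effector-related gene followed Ccl5. Klrd1 had 246 CPM in KO and 172 CPM in WT cells with Ccl5, against 351 CPM in KO and 226 CPM in WT cells without, so it was present across both classes. Xcl1 had 210 CPM in KO and 92.8 CPM in WT cells with Ccl5, against 178 CPM in KO and 348 CPM in WT cells without, with an order that differs between the libraries; the WT value without Ccl5 came from 1 cell with 120 UMIs. Itgae, the integrin of resident cells in epithelium, had 22.1 CPM in KO and 0 CPM in WT cells with Ccl5, against 35.4 CPM in KO and 29.0 CPM in WT cells without.

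**Figure D4:**
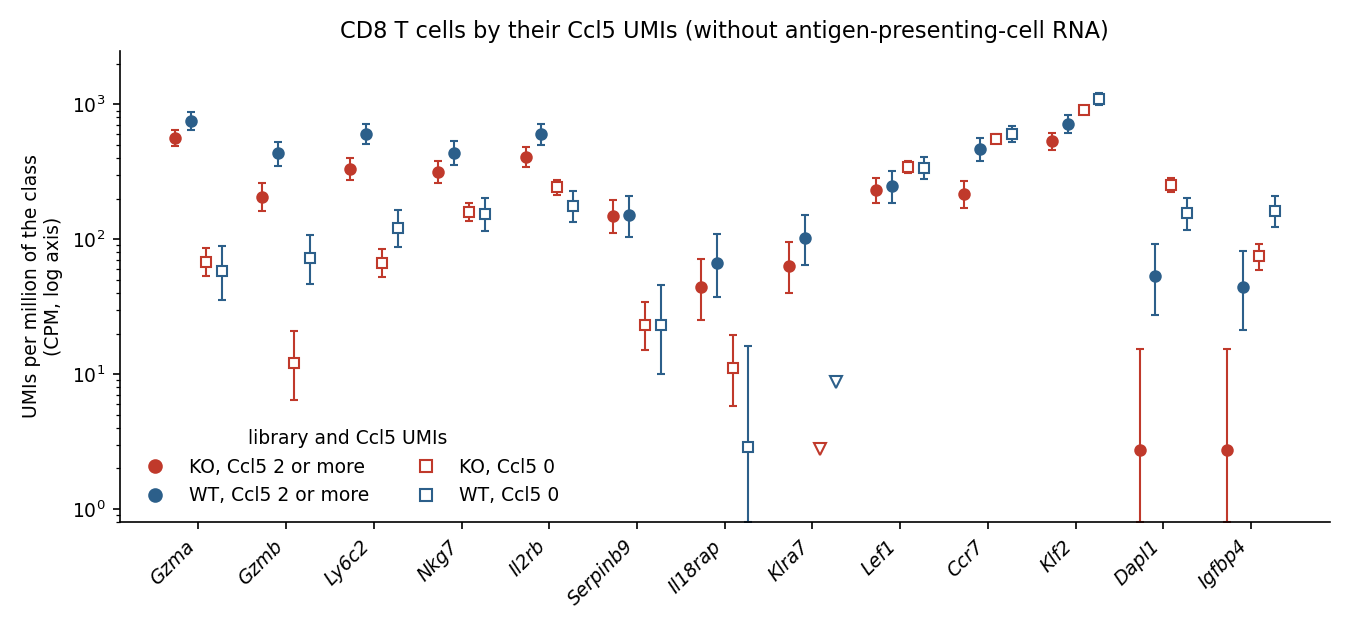
CPM on a log axis of 13 genes in members without antigen-presenting-cell RNA, split into cells with 2 or more Ccl5 UMIs (filled circles) and cells with none (open squares), KO in red and WT in blue, with exact 95% Poisson intervals; open triangles mark a count of 0 at the level of 3 counts. Ly6c2, Nkg7 and Il2rb were higher and Klf2, Dapl1 and Igfbp4 lower in the cells with Ccl5, in each library.

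The share of members with at least 2 Ccl5 UMIs was 12.1 percentage points lower in KO (-12.1, interval -22.2 to -2.66), and -13.1 points without antigen-presenting-cell RNA (40 of 220 KO and 30 of 96 WT cells). Among members with at least 2 CD8 UMIs it was -5.77 points (20.1% in KO and 25.9% in WT). After thinning to 2000 UMIs, 16.3% of KO (11.9 to 21.6%) and 28.1% of WT members (20.1 to 37.3%) had a Ccl5 UMI. The corresponding share was 3.60% in KO and 7.44% in WT B cell barcodes. Thinned shares of Ly6c2 were 18.8% in KO and 31.6% in WT members, against 29.6% and 47.8% unthinned. Those of Klrd1 ran the other way, 47.7% in KO and 29.8% in WT members, against 73.8% and 62.6% unthinned. In B cell barcodes both genes had thinned shares of at most 1.65% in either library.

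Over the whole transcriptome, 51 of 6240 tested genes (0.817%) were at least 2-fold higher and 143 (2.29%) at least 2-fold lower in KO than in WT members, 3.11% in all, on the scale of log2(CPM + 5). A gene was tested with at least 40 UMIs over both libraries, out of 15020 genes with any UMI, and the median log2 ratio was -0.06. Scaling by TMM factors in place of total UMIs added up to 0.14 to a log2 ratio, less for low genes, and 84 genes were then higher and 101 lower, so that 45.4% of the genes past 2-fold were higher, against 26.3% by total UMIs. Without antigen-presenting-cell RNA, 63 of 5247 genes (1.2%) were higher and 85 (1.62%) lower, 2.82% in all. These counts of genes come from 2 libraries and no test.

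Rgcc, a regulator of the cell cycle, had the highest ratio by the naming rule over all members. It had 342 UMIs in 113 KO cells (180 CPM, 162 to 200) and 60 UMIs in 29 WT cells (62.6 CPM, 47.7 to 80.5), a log2 ratio of 1.45, and 1.41 without antigen-presenting-cell RNA. The log2 ratio of Rgcc was -0.03 in CD4 T cells and 0.26 in all other kept barcodes. Rgs10, which speeds the switching-off of G protein signals, had 440 CPM in KO (411 to 471) and 195 CPM in WT (168 to 225), a log2 ratio of 1.15, with 0.27 in CD4 T cells and 0.47 in all other barcodes. Over 13 alternatives the ratio stayed between 1.28 and 1.67 for Rgcc and between 1.05 and 1.29 for Rgs10.

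Several of the other high genes were also higher in the KO library outside the CD8 T cells. Erh had 141 CPM in KO and 66.7 CPM in WT members (log2 ratio 1.03) and a ratio of 0.68 in all other barcodes. For Churc1 the ratio was 0.92 in CD8 T cells and 0.64 in the others, for Selenoh 0.90 and 0.55, for Timm13, a mitochondrial import protein, 0.83 and 0.62, and for Tomm6 0.82 and 0.51. Ramp3, which partners the calcitonin-like receptor, had 299 CPM in KO and 167 CPM in WT members (0.82) and a ratio of 1.26 without antigen-presenting-cell RNA, against 0.67 in all other barcodes. Tubb2a, a tubulin, had 105 CPM in KO and 50.1 CPM in WT members (1.00), a ratio of 0.79 in CD4 T cells and 0.02 in all other kept barcodes. The ratio of Apoe, a lipid carrier of macrophages, was 1.02, but 0.37 without antigen-presenting-cell RNA, with 22.4% of its KO and 34.2% of its WT UMIs from 1 cell each.

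Among the lowest ratios, Lars2 (mitochondrial leucyl-tRNA synthetase) had the most cells behind it: 229 UMIs in 129 KO cells (121 CPM, 106 to 137) and 383 UMIs in 108 WT cells (399 CPM, 360 to 441). Its log2 ratio was -1.69 in CD8 T cells, -1.61 in CD4 T cells and -1.46 in all other kept barcodes, a difference of the whole library. AC149090.1 was alike, with 73.2 CPM in KO and 229 CPM in WT members (-1.58) and -1.41 in all other barcodes. Hspa1b, an inducible heat shock protein, had 5 UMIs in KO and 142 in WT members (-4.33), the latter in 7 cells with 48.6% in 1 of them. Olfr1369-ps1, a pseudogene, had 50 UMIs in 11 KO cells and 127 UMIs in 6 WT cells (-2.13).

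Of the other 6 lowest genes, 4 moved by over 0.6 towards 0 or past it without antigen-presenting-cell RNA. Hmox1, which degrades haem, had 47.9 CPM in KO and 275 CPM in WT members (log2 ratio -2.40), and -0.73 without that RNA. Ccl6 gave -1.58, and -0.19 without it. Csf2rb gave -1.77 and -1.13, Tnfaip2 -1.76 and -1.43, and Gfpt1 -1.61 and -1.15. Mmp12, a macrophage protease seen in 6 KO and 3 WT cells, gave -2.55 and turned to 1.58. Chosen again without that RNA, 6 of the 10 highest and 4 of the 10 lowest genes were shared with the genes above. The highest was then Bcl2a1b (1.68, but 0.46 over all members), an inhibitor of apoptosis with near-identical copies, above Rgcc (1.41). The other new names among the highest were S100a4 (1.35, but 0.15 over all members), Tnfrsf9 (0.99) and Dnajb11 (0.84). Among the lowest they were Ccl4 (-1.75), Gzmb (-1.45), Fcer1g (-1.38, but -0.49 over all members), Ly6c2 (-1.27), Nmt1 (-1.48) and Cpa3 (-1.33). Some rest on few cells: without that RNA, S100a4 was in 17 KO and 7 WT cells and Fcer1g in 8 KO and 6 WT cells. Cpa3 had 158 UMIs in 2 KO cells and 184 UMIs in 2 WT cells.

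**Figure D5:**
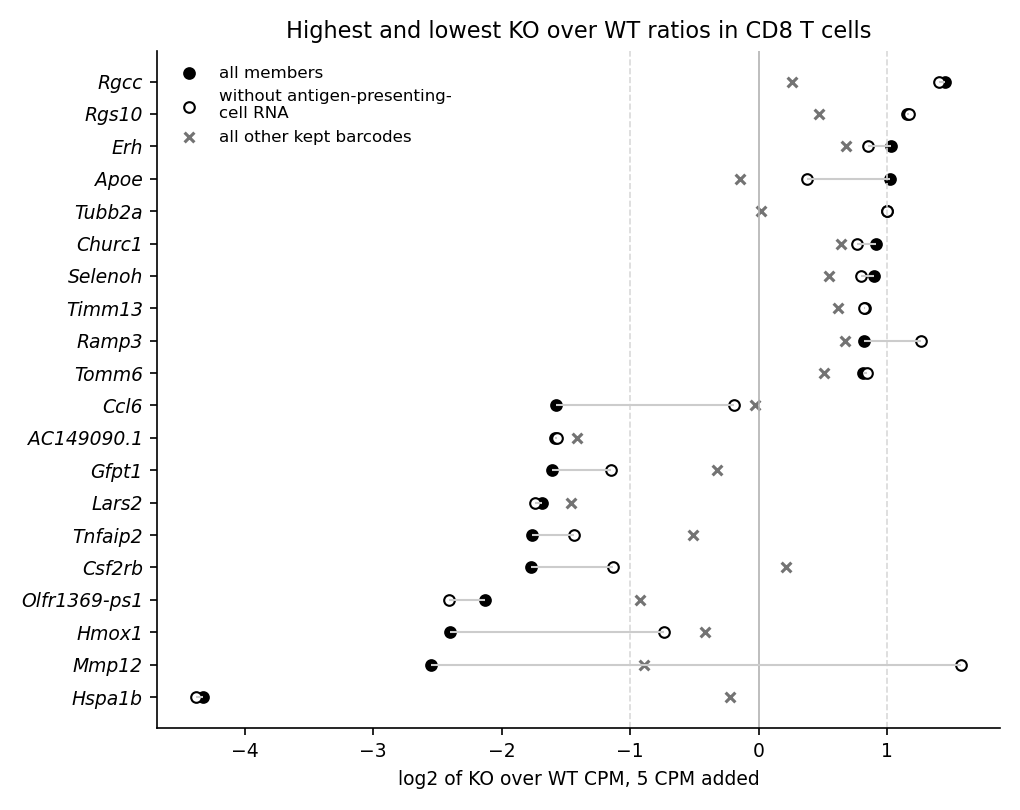
Log2 of KO over WT CPM, 5 CPM added, for the 10 highest and 10 lowest genes in CD8 T cells by the naming rule: all members (filled), members without antigen-presenting-cell RNA (open) and all other kept barcodes (crosses); dashed lines mark 2-fold. Rgcc and Rgs10 stood apart from the other barcodes, Lars2 and AC149090.1 did not, and Mmp12 and Hmox1 moved when antigen-presenting-cell RNA was left out.

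Memory and effector lists held several of the genes lower in KO members. Of 13 tested memory and effector regulators (of 18), 4 were past 2-fold lower and 0 higher, beside 2.29% lower among all genes, with a median log2 ratio of -0.37 over the list and -0.06 over all genes. Ly6c2 had 145 CPM in KO (128 to 163) and 344 CPM in WT (308 to 383), a log2 ratio of -1.22, and -1.27 without antigen-presenting-cell RNA. Ly6a (Sca-1), a surface protein induced by interferon, had 39.5 CPM in KO and 91.8 CPM in WT (-1.12, and -1.19 without that RNA). The adhesion receptor Cd44 (-1.06) and the transcription factor Prdm1 (-1.47) moved to -0.60 and -0.23 without that RNA. This left 2 lower genes of 10 tested, beside 1.62% lower among all genes without that RNA. Il2rb (255 CPM in KO and 273 CPM in WT) and Id2 (310 and 401 CPM) were within 2-fold.

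Of 20 tested cytotoxic effectors (of 23), 3 were lower past 2-fold and 0 higher, beside 2.29% and 0.817% of all genes, and the median was -0.16. Without antigen-presenting-cell RNA, 3 of 15 tested were lower and 1 higher, beside 1.62% and 1.2% of all genes, and the median was -0.01. Ccl5 had 470 CPM in KO (440 to 502) and 867 CPM in WT (809 to 928), a log2 ratio of -0.88, and -1.25 without antigen-presenting-cell RNA. Gzmb had 64.8 CPM in KO and 149 CPM in WT (-1.14), with 51.0% of the WT UMIs in 1 cell. The chemokine Ccl4 had 157 CPM in KO and 390 CPM in WT (-1.29), with 61.8% of the WT UMIs in 1 cell, and Ccl3 gave -1.42. Gzma (194 CPM in KO and 234 CPM in WT) and Nkg7 (192 and 214 CPM) were within 2-fold. Lgals1 (353 CPM in KO and 228 CPM in WT), Hopx (182 and 128 CPM) and the granule proteoglycan Srgn (1305 and 1027 CPM) had higher values in KO, also within 2-fold.

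Of 21 tested naive and central memory genes (of 23), 2 were lower past 2-fold, Als2cl (-1.29, 17 UMIs in KO and 28 in WT) and Igfbp4 (-1.0), 0 were higher, beside 2.29% lower and 0.817% higher among all genes, and the median was -0.29. Without antigen-presenting-cell RNA, 0 of 20 tested were past 2-fold, beside 2.82% of all genes, and the median was -0.30. Tcf7 had 291 CPM in KO and 400 CPM in WT (-0.45), and S1pr1, the receptor for exit from tissue, 229 CPM in KO and 311 CPM in WT (-0.43). Lef1 (279 CPM in KO and 266 CPM in WT, 0.07) and Klf2 (0.03) were at like levels. Among the 25 T cell receptor signalling genes, all tested, 0 passed 2-fold, beside 3.11% of all genes, with a median of 0.21. Cd3e had 281 CPM in KO and 438 CPM in WT (-0.63). Trbc2 had 1365 CPM in KO and 955 CPM in WT (0.51), and the adaptor Lat 155 CPM in KO and 101 CPM in WT (0.60). Cd3d, Cd3e and Cd3g, all in this list, were used in the rule.

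None of the tested residency and checkpoint genes passed 2-fold, beside 3.11% of all tested genes. At that share, lists this short would hold few such genes or none. The 9 tested residency genes (of 15) had a median of 0.13, with Cd69 at 264 CPM in KO and 252 CPM in WT, Itgae at 27.9 CPM in KO (20.9 to 36.5) and 13.6 CPM in WT (7.22 to 23.2), and Icos at 132 CPM in KO and 74.0 CPM in WT (0.79). The 6 tested checkpoint receptors (of 11) had a median of 0.24, with Pdcd1 (PD-1) at 23.2 CPM in KO and 17.7 CPM in WT and Cd160 at 42.1 CPM in KO and 20.9 CPM in WT (0.87). Lag3, Havcr2 and Tigit had 4, 7 and 5 UMIs in KO and 1, 12 and 4 UMIs in WT, too few to test. The sign of the residency median held in 11 of 13 alternatives and that of the checkpoint median in 12.

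Among 15 tested chemokine and homing receptors (of 19), Cxcr4, the receptor of Cxcl12, was higher past 2-fold, with 97 UMIs in 53 KO cells (51.1 CPM, 41.4 to 62.3) and 17 UMIs in 16 WT cells (17.7 CPM, 10.3 to 28.4), a log2 ratio of 1.30, and 1.45 without antigen-presenting-cell RNA. Cd44 was the 1 lower gene, but not without that RNA, and the list's median was -0.25. Over all genes, 0.817% were higher and 2.29% lower past 2-fold. Tnfrsf4, in the list of CD4 and regulatory T cell markers, had 118 UMIs in KO and 12 in WT members (62.2 and 12.5 CPM, 1.94), with 30.5% of the KO UMIs in 1 cell. Of 6 tested NK receptors (of 16), Klra7 was lower past 2-fold (-1.08), beside 2.29% of all genes. Klrd1 had 299 CPM in KO and 200 CPM in WT (0.57).

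None of the 23 tested interferon-stimulated genes (of 26), 15 class I genes (of 15), 16 cytokine receptors (of 18) or 17 cell cycle genes (of 17) passed 2-fold. Over all genes, 3.11% did. In that order, the list medians were -0.27, -0.26, -0.08 and 0.19. The last median turned to -0.13 without antigen-presenting-cell RNA, and that of the cytokine receptors to 0.05 under TMM factors. Of the 22 immediate early and heat shock genes, all tested, 3 were lower past 2-fold, beside 2.29% of all genes (median -0.22). Without antigen-presenting-cell RNA, 3 of 21 were lower, beside 1.62% of all genes. The 3 lower genes of all members were Hspa1b, Hspa1a (3 UMIs in KO and 60 in WT) and Btg1, an inhibitor of proliferation abundant in resting lymphocytes. Btg1 had 1824 CPM in KO (1763 to 1886) and 3659 CPM in WT (3539 to 3782), a log2 ratio of -1.0, with -1.18 in CD4 T cells and -0.73 in all other kept barcodes.

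Markers of other cell types also differed between the libraries. Of 4 class II genes, all tested, 3 were lower past 2-fold in KO members (median -1.18), beside 2.29% of all genes. The 9 tested myeloid markers (of 11) had 0 past 2-fold, beside 3.11% of all genes, and a median of -0.38. The whole myeloid list summed to 1717 CPM in KO and 2636 CPM in WT, or 96.1 CPM in KO and 132 CPM in WT without antigen-presenting-cell RNA. Of 6 tested fibroblast markers (of 9), 4 were lower past 2-fold, beside 2.29% of all genes (median -1.37), with a sum of 280 CPM in KO and 851 CPM in WT. This list includes Col1a1 and Col3a1, whose level the rule capped, so its values rest in part on the rule. Without antigen-presenting-cell RNA, 5 of 5 were lower (median -2.09), beside 1.62% of all genes, with a sum of 191 CPM in KO and 973 CPM in WT. In all members, 1 cell gave 70.7% of the UMIs of Dcn, a matrix proteoglycan, in KO and 76.7% in WT. B cell, epithelial and endothelial markers summed to 79.0, 88.0 and 53.2 CPM in KO and to 113, 99.1 and 41.7 CPM in WT. Of these, the B cell gene Cd79a and the epithelial gene Epcam were held at 0 by the rule. The part of this foreign RNA in the differences between KO and WT members was not tested beyond the values given without antigen-presenting-cell RNA.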

How the data were processed

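The deposited files hold UMI counts per gene and barcode for 2 libraries, whole numbers that the authors had not normalised. Cell Ranger 5.0.1, the mm10 build and Seurat 3.2.0 are listed in the submitters' processing notes. Positions came from GENCODE M21 on GRCm38, in which 99.8% of the gene identifiers were found. Members were taken by the rule in the opening paragraph. The members and gene lists were chosen with earlier results of these data known.

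UMIs were summed per library and cell type and divided by the total to give CPM. KO over WT ratios are log2 with 5 CPM added, for genes with at least 40 UMIs over both libraries, and called past 2-fold. Named genes are the 10 highest and 10 lowest ratios among genes that had at least 60 UMIs, reached 100 CPM in the higher library and had at least 0.5 times the level of all other barcodes there, without ribosomal protein, mitochondrial, haemoglobin, Gm, Rik and rule genes. For CD8 against CD4 T and NK cells they are the 10 highest and 10 lowest called genes whose higher type reached 50 CPM in both libraries. Other genes named are members of the lists, or, for Ccl5 classes, list genes chosen after their values were seen.

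CPM carry exact Poisson and shares exact Clopper-Pearson intervals at 95%. Counts of 0 are bounded by 3 counts. Cell types were compared with edgeR 4.0.16 (quasi-likelihood, TMM, R 4.3.3) over 6 sums with 2 residual degrees of freedom, adjusted p under 0.05, tested first on simulated data. Barcodes of a library come from the same animals, so the library was a block. Doublets were called with Scrublet in scanpy 1.11.5 and kept. Alternatives were other filters and thresholds, thinning to 2000 UMIs, other pseudocounts, TMM, DESeq2 1.42.0, no low-count filter and no block. Leaving out members with antigen-presenting-cell RNA, or with over 15000 UMIs, was added after seeing the data.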

Additional observations from a re-analysis of the deposited data

How the results depend on the processing

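The ratio of CD8 T cell shares stayed between 1.92 and 2.31 over 8 alternatives, and the Ccl5 difference between -5.77 and -15.4 percentage points over 11.

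Against 51 genes past 2-fold higher in KO members, there were 92 with 1 CPM and 17 with 20 CPM added, 84 with TMM, 81 with at least 2 CD8 UMIs, 85 with a minimum of 20 UMIs and 23 with 100. Against 143 lower, there were 66 with 20 CPM added, 77 after thinning, 78 without members holding a UMI of Cd79b, Lyz2, Krt8, Krt18, Pecam1 or Csf1r, 85 without antigen-presenting-cell RNA, 232 with a minimum of 20 UMIs and 68 with 100. Fewer genes were tested after thinning (2210), without those members (3327) and without antigen-presenting-cell RNA (5247) than in all members (6240); otherwise the cause was not tested.

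Against 74 genes higher and 44 lower in CD8 than in CD4 T cells, DESeq2 gave 20 and 19, leaving out doublets 40 and 25, leaving out antigen-presenting-cell RNA 112 and 93 (71 and 41 shared), no count filter 220 and 155, and a fit of the 2 types alone 123 and 77. Against 275 higher and 311 lower than in NK cells, DESeq2 gave 119 and 190, no filter 529 higher, and leaving out doublets 202 and thinning 194 lower.

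Without the replicate block there were 9 higher and 4 lower than in CD4 T cells, and 88 higher and 146 lower than in NK cells. The block pairs the cell types within each library. No paired analysis of KO against WT was possible because they have 1 library each. Leaving out either library leaves no residual degrees of freedom, so it gives values without a test, which kept their sign for all 40 named genes.

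Single ratios reversed for Apoe (-0.84 without members over 15000 UMIs), for Hspa1b (0.20), Csf2rb (1.21), Ccl6 (0.33) and Mmp12 (2.12) without members holding those 6 genes, and for Mmp12 also with at least 2 CD8 UMIs (1.64), without antigen-presenting-cell RNA (1.58) and without members over 15000 UMIs (0.77). The cause was not tested. Among the alternative values of the named KO over WT ratios, 213 stayed within counting error, 39 moved beyond it and 8 reversed. List medians were less stable: 109 alternative values moved by more than the counting error of the list's summed UMIs, and 172 did not. With TMM factors 16 list medians moved and 6 did not, and after thinning 14 moved and 6 did not. Of 265 alternative tests of named cell-type genes, 19 lost the call. With 28 and 19 NK barcodes and 80 and 45 CD4 barcodes, small differences in low genes cannot be seen at this depth. Some list medians had no tested gene left in the smaller subsets.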
